A study of Homo sapiens with 8 samples.

Results

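The genes described here encode 10 inflammatory cytokines and colony-stimulating factors: IL6, IL11, LIF, CXCL1, CXCL2, CXCL3, CXCL8, CSF1, CSF2 and CSF3. They were taken as the rows of the deposited count table whose Ensembl gene carries 1 of these 10 symbols. All 10 symbols were found, among 60646 genes in the table. RNA-seq of MDA-MB-231 cells, an established line from a triple-negative breast cancer, gave the values. The knockout group held 4 samples of DOT1L/+ KO cells, in which a guide RNA had been aimed at exon 1 of the gene, and the wild-type group held 4 samples with unedited DOT1L. Both groups were grown in DMEM with fetal bovine serum and collected the day after plating, and no stimulus is named for either. The labels say neither how many alleles were edited nor whether the knockout cells were 1 clone or a pool, and in bulk RNA fewer expressing cells and less RNA per cell cannot be told apart.

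These genes encode secreted proteins through which tumour, stromal and blood cells signal to each other. IL6, IL11 and LIF form receptor complexes around the shared chain gp130 (IL6ST), which acts through JAK kinases and STAT3. CXCL1, CXCL2, CXCL3 and CXCL8 attract neutrophils through the receptors CXCR1 and CXCR2. CSF1, CSF2 and CSF3 drive the growth and survival of macrophages, of granulocytes and macrophages, and of neutrophils. Many of these genes are switched on by the transcription factors NF-kB and AP-1, and many of their messages are short-lived because AU-rich stretches in the 3′ untranslated region (UTR) recruit decay factors. MDA-MB-231 cells are known for making several of them without stimulation.

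The members went in different directions. Levels are given as CPM, the count of a gene scaled to a common library total. CXCL1 was 4.77-fold higher in knockout than in wild-type cells and CSF1 was 2.31-fold lower, and these were the largest changes each way. LIF was also lower. CXCL8, CSF3, CXCL3, IL6 and CSF2 passed the test as higher. In the fit without the replicate number, each of these calls was lost when some single sample was left out. IL11, the most abundant member, and CXCL2 did not pass. Changes were tested with edgeR's quasi-likelihood test over all 19877 genes that passed a low-count filter, and a gene was called at a Benjamini-Hochberg adjusted p below 0.05. All 10 members passed the filter, 6 were called higher, 2 lower and 2 were not called, and their median log2 change was 0.53. Over all tested genes 47.6% were called, 23.9% higher and 23.6% lower, with a median log2 change of 0.00. With library totals in place of trimmed-mean scaling, higher calls made up 61.2% of all calls, and the members' counts were again 6 higher and 2 lower. Leaving out 1 sample lowered the 6 to 3 (without knockout replicate 2 or wild-type replicate 2 or 3) or to 2 (without wild-type replicate 1 or 5), while the 2 lower calls stayed. With the replicate number as a block in the edgeR fit, CXCL8 lost its call (adjusted p = 0.0537). In that edgeR fit CSF3 (5.82e-07), CXCL3 (0.00331), IL6 (0.00803) and CSF2 (0.0162) kept theirs. No sample was left out of the blocked fit, so how its calls depend on single samples was not tested. The samples of the groups did not overlap for 5 members, against 43.4% of all tested genes.

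**Figure D1:**
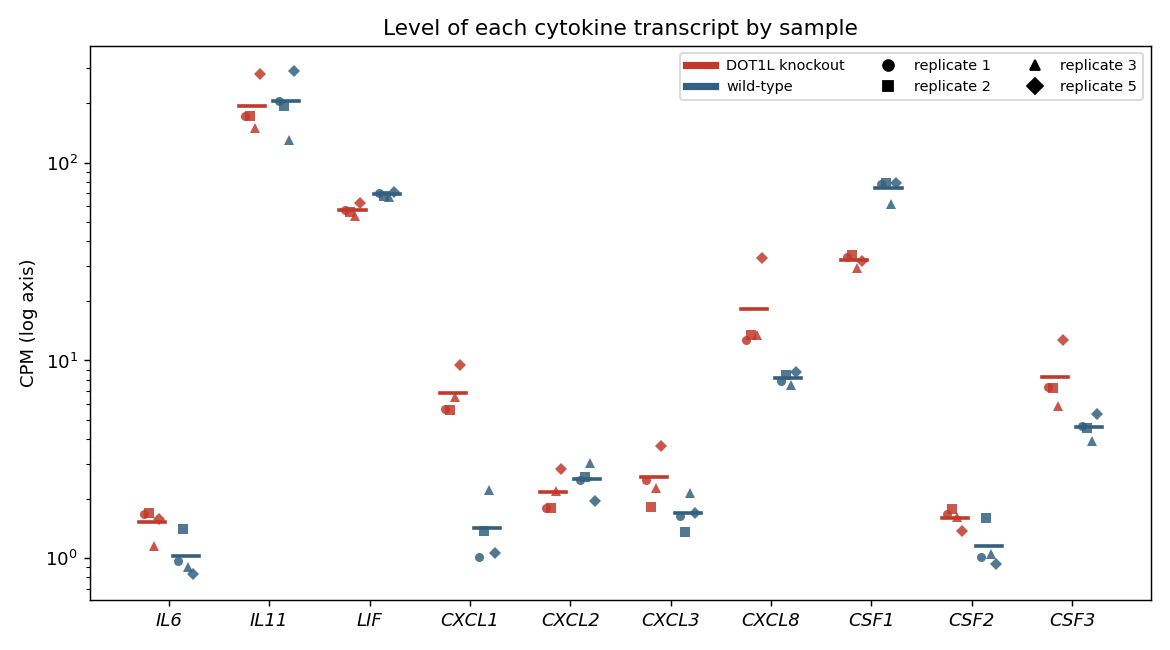
Level of each member in every sample, in CPM on a log axis. Red marks are the 4 knockout and blue marks the 4 wild-type samples, shapes give the replicate number and bars the group mean. CXCL1 in knockout samples (5.60 to 9.48 CPM) lies above wild-type (1.01 to 2.22 CPM), CSF1 in knockout samples (29.3 to 34.1 CPM) lies below wild-type (62.0 to 78.6 CPM), and IL11 spreads over the same range in both groups.

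Totals ran from 40103408 to 50031412 counts per sample, so 1 count stood for 0.0200 to 0.0249 CPM before trimmed-mean scaling. DOT1L, the targeted gene, stood at 78.1 to 92.3 CPM in knockout samples and 101 to 118 CPM in wild-type samples (log2 change -0.37, SE 0.06, edgeR adjusted p = 2.83e-05), which does not show how much intact transcript remained. Of markers of the line, VIM, CD44, EGFR, AXL and KRT18 were abundant in both groups. KRT19 had 50.3 CPM in the knockout group and 79.4 CPM in wild-type. Of luminal or epithelial markers, GATA3 had 968 counts over the knockout group and 702 over wild-type and rose (edgeR adjusted p = 0.0195). ESR1 had 104 and 47 and also rose (edgeR adjusted p = 0.0333). PGR had 18 counts over the knockout group and 5 over wild-type, and CDH1 had 41 and 1. The 11 blood cell markers summed to 2.05 to 3.31 CPM in knockout samples and 0.866 to 1.53 CPM in wild-type samples. Of the 3 that were tested, CSF1R (278 counts over the knockout group and 118 over wild-type) and CD68 (100 and 53) rose and CD14 (82 and 36) did not pass. PTPRC, which marks most white blood cells, had 27 counts over the knockout group and 9 over wild-type, ITGAM had 15 and 4 and CD163 had 10 and 0. AIF1, CD3E, CD2 and MS4A1 had at most 4 counts over either group. The 9 stromal markers summed to 25.8 to 31.8 CPM in knockout samples and 11.8 to 21.6 CPM in wild-type samples, with COL1A1 and PDGFRB making up most of it. Of the 5 that were tested, COL1A1 (log2 change 0.89, edgeR adjusted p = 1.41e-05) and VWF (1.96, 8.28e-06) rose and PDGFRB, PECAM1 and CDH5 did not pass. COL1A2 had 13 counts over the knockout group and 0 over wild-type, PDGFRA had 14 and 7, DCN had 0 and 2 and LUM had 0 and 8. Whether these marker levels had a part in the cytokine values was not tested.

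Levels of different genes were compared per kilobase of annotated exon. In the knockout group the order of mean level was IL11 (72.4 ± 22.03 CPM per kb), LIF (14.5 ± 0.935), CXCL8 (7.99 ± 4.39), CSF1 (5.93 ± 0.397), CXCL1 (5.27 ± 1.40), CSF3 (3.73 ± 1.35), CSF2 (2.04 ± 0.217), CXCL2 (1.44 ± 0.328), CXCL3 (1.16 ± 0.365) and IL6 (0.736 ± 0.122 CPM per kb; SD, n = 4 each). In wild-type it was IL11 (76.6 ± 24.7 CPM per kb), LIF (17.4 ± 0.545), CSF1 (13.7 ± 1.51), CXCL8 (3.58 ± 0.235), CSF3 (2.08 ± 0.264), CXCL2 (1.67 ± 0.302), CSF2 (1.46 ± 0.386), CXCL1 (1.10 ± 0.429), CXCL3 (0.768 ± 0.146) and IL6 (0.496 ± 0.124 CPM per kb; SD, n = 4 each). IL11 stood above all other members in every sample of both groups. In the knockout group the samples of neighbours in this order did not overlap between IL11 and LIF, between CSF3 and CSF2 and between CXCL3 and IL6. In wild-type they did not overlap from IL11 down to CSF3, and every neighbouring pair from CSF3 to IL6 overlapped. CXCL1 ranked above CSF3 and CSF2 in the knockout group and below both in wild-type.

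The 4 CXCL genes lie within 358788 bases of chromosome 4 (build GRCh38, GENCODE 29). In the order of the chromosome they are CXCL8 (73740506 to 73743716, plus strand), CXCL1 (73869393 to 73871242, plus strand), CXCL3 (74036589 to 74038807, minus strand) and CXCL2 (74097035 to 74099293, minus strand). Their starts are shown first because CXCL1, CXCL2 and CXCL3 carry the same motif matches before the start, while CXCL1 and CXCL3 were called higher and CXCL2 was not called. Of the 10 members 7 had an entry in the RefSeq promoter table (GRCh38.p14), which did not include LIF, CSF1 and CSF3. The promoter starts are those of RefSeq and can differ from the GENCODE gene bounds. The stretches of CXCL8, CXCL2 and CXCL3 reach into the annotated gene, and that of IL6 lies inside it. The lines give the 150 bases before the start of the 6 members with such a match, so IL11 has no line, 5′ to 3′ on the gene's strand, with capitals marking matches to the 10-base NF-kB consensus or to GGNNNTTCC on either strand. These motifs overlap each other, and a match to one often holds a match to the other.
CXCL1, chr4:73869243-73869392, plus strand: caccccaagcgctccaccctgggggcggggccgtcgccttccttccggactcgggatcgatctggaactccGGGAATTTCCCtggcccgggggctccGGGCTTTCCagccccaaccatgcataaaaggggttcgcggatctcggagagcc
CXCL2, chr4:74099196-74099345, minus strand: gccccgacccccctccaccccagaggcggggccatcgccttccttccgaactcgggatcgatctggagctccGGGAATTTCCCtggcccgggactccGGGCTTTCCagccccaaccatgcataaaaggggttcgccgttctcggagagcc
CXCL3, chr4:74038690-74038839, minus strand: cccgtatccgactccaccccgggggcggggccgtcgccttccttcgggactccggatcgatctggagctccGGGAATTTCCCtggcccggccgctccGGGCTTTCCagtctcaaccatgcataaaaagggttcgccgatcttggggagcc
CXCL8, chr4:73740419-73740568, plus strand: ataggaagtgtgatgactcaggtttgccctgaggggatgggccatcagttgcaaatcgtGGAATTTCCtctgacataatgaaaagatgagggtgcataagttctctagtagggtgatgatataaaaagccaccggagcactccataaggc
IL6, chr7:22727050-22727199, plus strand: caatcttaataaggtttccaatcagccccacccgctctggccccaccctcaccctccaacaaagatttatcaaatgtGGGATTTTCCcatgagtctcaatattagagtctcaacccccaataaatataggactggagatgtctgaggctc
CSF2, chr5:132073639-132073788, plus strand: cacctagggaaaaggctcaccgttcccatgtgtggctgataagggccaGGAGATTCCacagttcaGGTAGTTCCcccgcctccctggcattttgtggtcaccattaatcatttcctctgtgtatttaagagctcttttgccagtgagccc

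In the 250 bases before the start, the NF-kB consensus was found in 4 of the 7 members (IL6, CXCL1, CXCL2 and CXCL3), against 9.96% of 35116 promoter entries. GGNNNTTCC was found in 6 of 7, all but IL11, against 17.1% of entries. The AP-1 motif TGANTCA was found in CXCL8 and IL11, against 6.57% of entries. CXCL1, CXCL2 and CXCL3 each held GGGAATTTCC, ending 70, 69 and 70 bases before the start, and GGGCTTTCC ending 45 bases before it in all 3. A match describes the letters and says nothing of what binds there.

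CXCL1 (GROα), a neutrophil attractant also known for its role in breast cancer spread, rose most of the 10. Its level was 5.72, 5.60, 6.50 and 9.48 CPM in knockout replicates 1, 2, 3 and 5, against 1.01, 1.38, 2.22 and 1.07 CPM in wild-type replicates 1, 2, 3 and 5. Every knockout sample stood above every wild-type sample, with knockout replicate 5 the highest. The log2 change was 2.25 (SE 0.26, edgeR adjusted p = 5.71e-05), and by replicate number it ran from 1.55 to 3.15. The call held under all 18 alternatives tried, with log2 changes from 1.93 to 2.6.

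CXCL8 (interleukin-8), the most widely studied neutrophil attractant, had the highest mean level per kilobase of the 4 chemokines in both groups. Its level was 12.6, 13.5, 13.4 and 33.1 CPM in knockout replicates 1, 2, 3 and 5, against 7.88, 8.42, 7.52 and 8.72 CPM in wild-type replicates 1, 2, 3 and 5. All knockout samples were above all wild-type samples, and knockout replicate 5 stood far above the other 3. The log2 change was 1.16 (SE 0.37, edgeR adjusted p = 0.0430). Without knockout replicate 5 it was 0.70 with an adjusted p of 2.39e-07. The call was lost when the replicate number entered the fit as a block (log2 change 1.06, adjusted p = 0.0537), without any of the 4 wild-type samples (0.0859 to 0.0991) and without knockout replicate 2 (0.0512) or 3 (0.0515).

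CXCL3 (GROγ) had 2.49, 1.81, 2.28 and 3.71 CPM in knockout replicates 1, 2, 3 and 5, against 1.63, 1.35, 2.13 and 1.70 CPM in wild-type replicates 1, 2, 3 and 5. The groups overlapped, since knockout replicate 2 lay below wild-type replicate 3. CXCL3 rose by 0.59 on the log2 scale (SE 0.20, edgeR adjusted p = 0.0218). Without knockout replicate 5 its log2 change was 0.36 (adjusted p = 0.0987), and the call was also lost without wild-type replicate 1 (0.0552), 2 (0.0669) or 5 (0.0503).

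CXCL2 (GROβ), the close relative of CXCL1 and CXCL3, did not rise with them. It had 1.80, 1.79, 2.19 and 2.84 CPM in knockout replicates 1, 2, 3 and 5, against 2.48, 2.58, 3.04 and 1.94 CPM in wild-type replicates 1, 2, 3 and 5. The groups overlapped and the log2 change was -0.22 (SE 0.17, edgeR adjusted p = 0.302). The replicate numbers split: knockout was below wild-type for numbers 1, 2 and 3 (log2 ratios -0.46, -0.53 and -0.47) and above it for number 5 (0.55). Without both samples numbered 5, an alternative chosen after seeing the data, CXCL2 passed as lower (log2 change -0.49, adjusted p = 0.0163). The 3 GRO transcripts are alike in part: 4.81% of the 50-base stretches of CXCL1 transcripts, 12.5% of those of CXCL2 and 6.01% of those of CXCL3 also occur in another of the 3. Reads from these stretches could be split between them, so small differences among the 3 are uncertain.

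**Figure D2:**
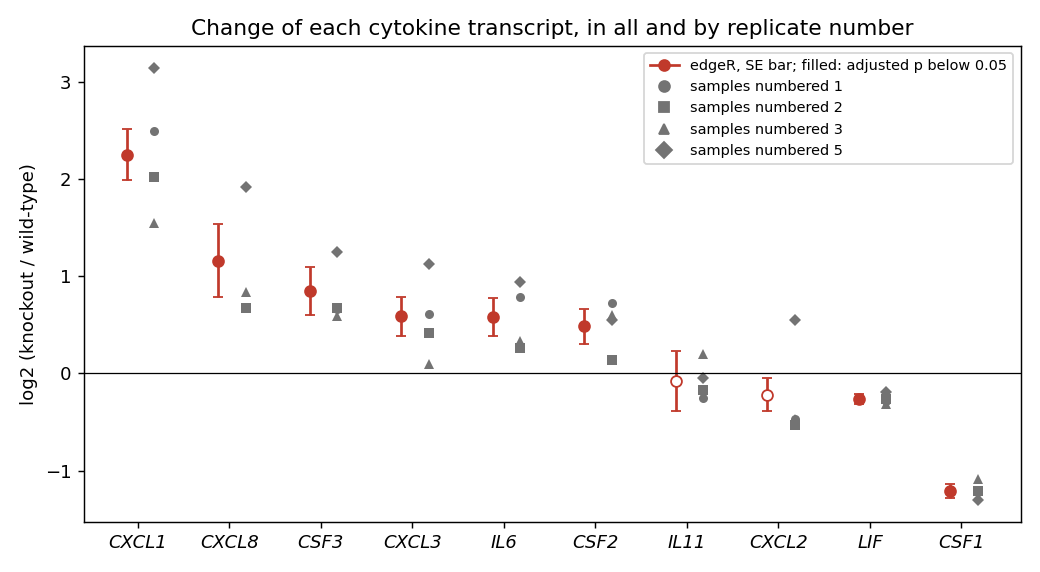
Log2 change of each member, knockout over wild-type. Red circles are the edgeR estimates with SE bars, filled where adjusted p was below 0.05, and grey marks are the log2 ratios of CPM between samples with the same replicate number. CXCL1 (2.25) stands highest and CSF1 (-1.21) lowest, and number 5 gives the highest ratio for CXCL1, CXCL8, CSF3, CXCL3, IL6, CXCL2 and LIF.

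Most of the tested genes around the chemokine genes fell. Among the 16 other tested protein-coding genes within 2 Mb of the CXCL genes, 11 fell, 4 rose and 1 did not pass, with a median log2 change of -0.78. The nearest of them on the CXCL2 side, MTHFD2L, fell by 0.66 in log2, and EREG, an EGF-receptor ligand beyond it, fell by 1.25. On the CXCL8 side RASSF6, at 0.4497 CPM in the knockout group and 0.158 CPM in wild-type, rose by 1.49. These 3 were named after their values were seen. For the other 6 members the median change of the 20 nearest tested protein-coding genes was between -0.08 (IL11) and 0.15 (LIF). Elsewhere on chromosome 4, the nearest tested protein-coding genes of PDGFRA, HNRNPD, NFKB1, TLR2 and TLR3 also mostly had log2 changes below 0. Their medians were -0.73, -0.81, -0.77, -0.75 and -0.88 in that order. Whether a different number of copies of the stretch around the CXCL genes, or of more of chromosome 4, has a part in these values was not tested. The chemokine genes CXCL5, CXCL6, PPBP, PF4 and PF4V1, which lie between CXCL8 and CXCL2, had between 0 and 2 counts over each group and were not tested. Farther out, but within 2 Mb, CXCL10 had 3 counts over the knockout group and 2 over wild-type. CXCL11, also within 2 Mb, had 33 and 4, with every knockout sample above every wild-type sample. Neither was tested.

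**Figure D3:**
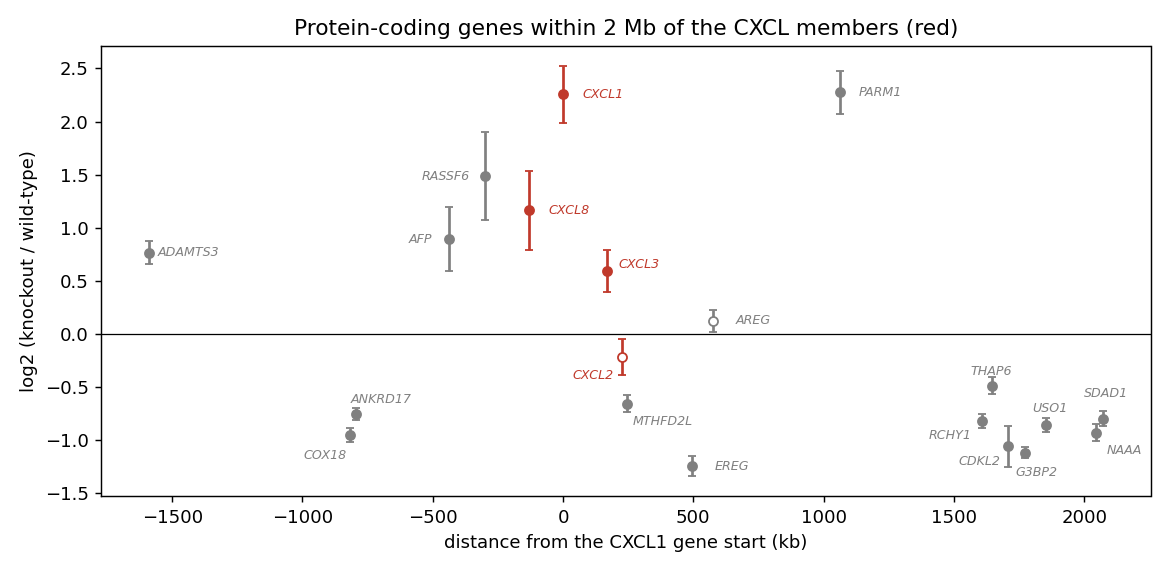
Log2 change, knockout over wild-type, of tested protein-coding genes within 2 Mb of the CXCL genes against the distance of their annotated start from that of CXCL1. Red marks are the 4 CXCL members and grey marks other genes, with SE bars and filled symbols where adjusted p was below 0.05. Of the 16 grey genes 11 lie below 0 and pass, while CXCL1, CXCL8 and CXCL3 lie above 0.

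Among the colony-stimulating factors the direction differed from gene to gene. CSF1 (chromosome 1, 109910242 to 109930992, plus strand), the growth factor of macrophages, fell. It had 33.4, 34.1, 29.3 and 31.8 CPM in knockout replicates 1, 2, 3 and 5, against 78.1, 78.6, 62.0 and 78.4 CPM in wild-type replicates 1, 2, 3 and 5. All knockout samples lay below all wild-type samples, and wild-type replicate 3 was the lowest of its group. The log2 change was -1.21 (SE 0.07, edgeR adjusted p = 1.18e-09), and the call held under all 18 alternatives, from -1.28 to -1.14.

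CSF3 (G-CSF; chromosome 17, 40015361 to 40017813, plus strand), which drives neutrophil production, rose. It had 7.37, 7.22, 5.87 and 12.7 CPM in knockout replicates 1, 2, 3 and 5, against 4.65, 4.53, 3.91 and 5.34 CPM in wild-type replicates 1, 2, 3 and 5. All knockout samples were above all wild-type samples, and in both groups replicate 5 was the highest and replicate 3 the lowest. The log2 change was 0.85 (SE 0.24, edgeR adjusted p = 0.0201). Leaving out wild-type replicate 1 (adjusted p = 0.0518), 2 (0.0546) or 3 (0.0723) ended the call.

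CSF2 (GM-CSF; chromosome 5, 132073790 to 132076170, plus strand) was close to the threshold and low. It had 1.67, 1.77, 1.61 and 1.37 CPM in knockout replicates 1, 2, 3 and 5, against 1.01, 1.603, 1.06 and 0.937 CPM in wild-type replicates 1, 2, 3 and 5. Wild-type replicate 2 lay within the knockout range, so the groups overlapped. CSF2 rose by 0.48 on the log2 scale (SE 0.18, edgeR adjusted p = 0.0361), on 312 counts over the knockout group and 200 over wild-type. The call was lost without knockout replicate 1 (adjusted p = 0.0749), 2 (0.0989) or 3 (0.0683) and without wild-type replicate 1 (0.0941), 3 (0.0680) or 5 (0.106).

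Of the ligands that signal through gp130, IL11 (chromosome 19, 55364389 to 55370463, minus strand), known for its part in the growth of breast cancer in bone, was the most abundant member and varied widely within both groups. It had 173, 172, 149 and 280.3 CPM in knockout replicates 1, 2, 3 and 5, against 206, 193, 129.6 and 290.1 CPM in wild-type replicates 1, 2, 3 and 5. The groups overlapped throughout, and the samples followed the same order in both, with replicate 5 highest, then 1, 2 and 3. The log2 change was -0.08 (SE 0.31, edgeR adjusted p = 0.858), and in the blocked fit it was -0.07 (adjusted p = 0.373). By number the log2 ratio ran from -0.25 to 0.20.

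LIF (chromosome 22, 30240447 to 30246851, minus strand), known for keeping stem cells undifferentiated in the mouse, fell by a small and even amount. It had 57.8, 56.4, 54.0 and 62.8 CPM in knockout replicates 1, 2, 3 and 5, against 70.6, 67.6, 67.0 and 71.4 CPM in wild-type replicates 1, 2, 3 and 5. No sample of the groups overlapped. The log2 change was -0.26 (SE 0.05, edgeR adjusted p = 0.00022), and the call held under all 18 alternatives, from -0.30 to -0.20.

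IL6 (chromosome 7, 22725884 to 22732002, plus strand), the founding member of this family, was the lowest of the 10 per kilobase. It had 1.67, 1.68, 1.15 and 1.59 CPM in knockout replicates 1, 2, 3 and 5, against 0.967, 1.40, 0.909 and 0.828 CPM in wild-type replicates 1, 2, 3 and 5. Knockout replicate 3 lay below wild-type replicate 2, so the groups overlapped. IL6 rose by 0.58 on the log2 scale (SE 0.19, edgeR adjusted p = 0.0185), on 297 counts over the knockout group and 178 over wild-type. The call was lost without knockout replicate 1 (adjusted p = 0.0521) or 2 (0.0575) and without wild-type replicate 5 (0.0601). The antisense gene IL6-AS1 overlaps IL6 and had 183 counts over the knockout group and 74 over wild-type. No source used here gives the strand setting of the counting, so reads where they overlap cannot be told apart. STEAP1B, which also overlaps IL6 on the other strand, had 59 counts over the knockout group and 14 over wild-type.

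Within the knockout group, replicate 5 was the highest sample for 7 of the 10 members, namely IL11, LIF, CXCL1, CXCL2, CXCL3, CXCL8 and CSF3, and its median deviation from the group mean was 0.46 on the log2 scale. The other 3 knockout samples had median deviations of -0.05, -0.13 and -0.13. In wild-type, replicate 5 was highest for 4 members (IL11, LIF, CXCL8 and CSF3) and lowest for 3, and the median deviations of the 4 samples lay between -0.10 and 0.04. IL11, CSF3, CXCL8 and LIF were thus highest in replicate 5 of both groups. CXCL1, CXCL2 and CXCL3 were highest in replicate 5 of the knockout and in replicate 3 of wild-type. The labels do not say what a replicate number stands for.

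**Figure D4:**
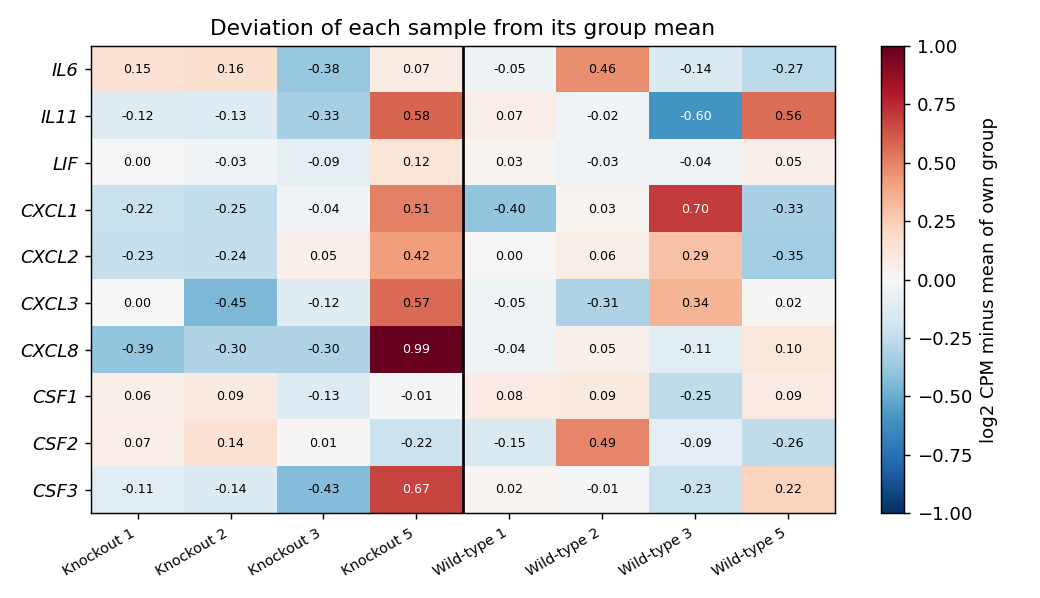
Deviation of each sample's log2 CPM from the mean of its own group, for the 10 members, with the 4 knockout samples to the left and the 4 wild-type samples to the right of the line. Red is above and blue below the group mean. Knockout replicate 5 is red for 8 of 10 members, most for CXCL8 (0.99).

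The protein-coding genes whose profile over the 8 samples was most like that of IL11, out of 11505 compared, were RNF207, WNT7B, PDE8A, MYLIP and LAMA5. Likeness was the root mean square distance between log2 CPM profiles, each centred on its own mean, and was 0.19, 0.19, 0.20, 0.20 and 0.20 in that order. WNT7B is a Wnt ligand, PDE8A a cAMP phosphodiesterase, MYLIP a ubiquitin ligase that targets the LDL receptor and LAMA5 a laminin chain.

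AU-rich cores were denser in most members than in protein-coding genes at large. The 3′ UTR of the principal transcript of each gene in GENCODE 29 was searched on the transcript strand for ATTTA, the core of these elements, and for the 9-base ATTTATTTA, which holds 2 overlapping cores. The lines give for 6 members the 30 bases with the most cores, with cores in capitals. They show some members with dense runs first, then LIF and CSF1, the members that fell. IL11, CSF3, IL6 and CXCL3 have no line. The stretches of IL11 (bases 27 to 56) and CSF3 (bases 16 to 45) hold 3 cores, as do those of CXCL1 and LIF. Those of IL6 and CXCL3, both called higher, hold 2 cores, as does that of CSF1. The lines thus do not divide the members that rose from those that fell.
CSF2, bases 220 to 249 of the 3′ UTR: ttttaaaatATTTATTTATTTATTTATTTA
CXCL2, bases 137 to 166: aagtcttctATTTATTTATTTATTTATTTA
CXCL8, bases 644 to 673: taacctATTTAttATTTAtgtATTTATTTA
CXCL1, bases 129 to 158: cttaggagaagtcttctATTTATTTATTTA
LIF, bases 3100 to 3129: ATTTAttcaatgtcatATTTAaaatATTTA
CSF1, bases 2073 to 2102: tttatataaagtcATTTAaatatctATTTA

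Density was 25.2 cores per kb in CSF2, 14 in IL6, 13.9 in CXCL2, 10.4 in CXCL3, 8.20 in CSF3, 7.19 in CXCL8, 7.08 in CXCL1, 5.56 in IL11, 2.18 in LIF and 1.86 in CSF1, against a median of 1.57 over 17822 protein-coding genes. ATTTATTTA was present in 5 of the 10 members (CSF2, CXCL2, IL11, CXCL1 and CXCL8), against 6.72% of all genes. LIF and CSF1 had the lowest densities of the 10, and they were the members called lower. Among the other 8 the density did not follow the size of the change, since CSF2 and CXCL2 were among the densest and CXCL1 rose most. This is a description of 10 genes, and the stability of the messages was not measured.

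**Figure D5:**
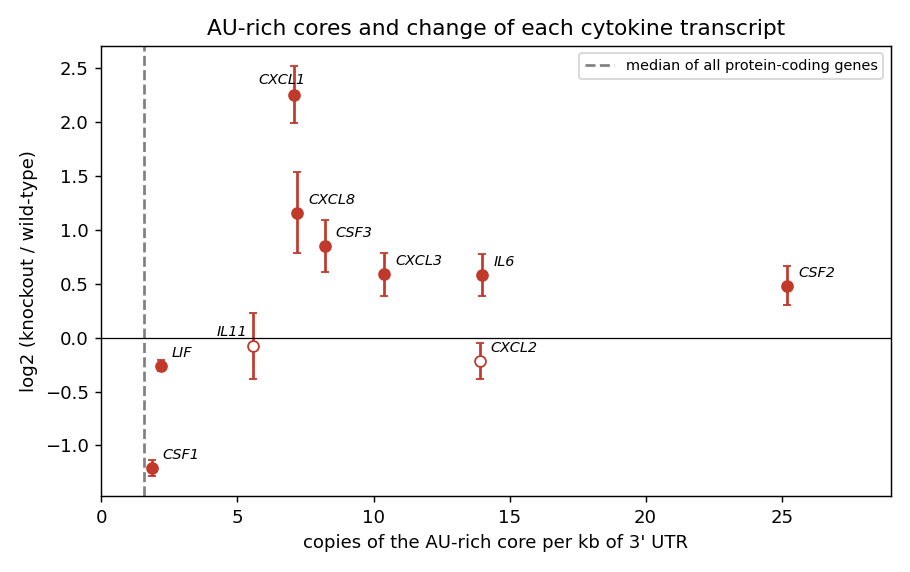
Log2 change of each member, knockout over wild-type (vertical axis, SE bars, filled where adjusted p was below 0.05), against the number of ATTTA cores per kb of 3′ UTR (horizontal axis). The dashed line is the median of protein-coding genes (1.57 per kb). LIF and CSF1 lie nearest to it, and CSF2 lies farthest from it at 25.2 per kb.

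The receptors of these ligands went in both directions. Of 12 receptor genes, 7 were tested, 4 rose and 3 fell, with a median log2 change of 0.30. Over all tested genes 47.6% were called, 23.9% higher and 23.6% lower. The 3 receptor genes that fell were the abundant ones of the gp130 family. LIFR and OSMR lie together on chromosome 5, where 19 of the 20 nearest tested protein-coding genes had a log2 change below 0 (median -0.55), and for IL6ST 12 of 20 did (median -0.11). IL6ST, which encodes gp130, had 265 ± 18.5 CPM in the knockout group and 363 ± 19.3 CPM in wild-type (SD, n = 4 each, log2 change -0.46, edgeR adjusted p = 5.04e-07). LIFR had 34.9 ± 2.95 CPM in the knockout group and 64.1 ± 9.97 CPM in wild-type (log2 change -0.88, adjusted p = 0.000182). OSMR, the oncostatin M receptor that pairs with gp130, had 56.1 ± 1.95 CPM in the knockout group and 126.7 ± 8.29 CPM in wild-type (log2 change -1.18, adjusted p = 1.17e-13).

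The other 4 tested receptor genes had lower CPM and rose. IL6R had 11.8 ± 0.596 CPM in the knockout group and 9.55 ± 0.998 CPM in wild-type (SD, n = 4 each, log2 change 0.30, edgeR adjusted p = 0.00507). IL11RA had 5.00 ± 0.601 CPM in the knockout group and 3.48 ± 0.786 CPM in wild-type (log2 change 0.53, adjusted p = 0.00368). CSF1R, the receptor of CSF1, had 1.43 ± 0.354 CPM in the knockout group and 0.686 ± 0.243 CPM in wild-type (log2 change 1.07, adjusted p = 0.00093). CSF2RB, the shared beta chain of the GM-CSF receptor, had 88 counts over the knockout group and 17 over wild-type (log2 change 2.19, adjusted p = 7.98e-05). CSF1R is also among the blood cell markers, whose summed level was higher in the knockout group. It is itself a large part of that sum.

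The receptors of the CXCL chemokines were not seen. CXCR1, CXCR2 and the decoy receptor ACKR1 had 0 counts in all 8 samples, which allows up to 3 counts, or 0.0595 to 0.0751 CPM, in each sample. This covers counting error only. CSF3R had 9 counts over the knockout group, 7 of them in replicate 3, and 0 in wild-type. CSF2RA was listed at 0 in every sample, but it lies in the first region shared by the X and Y chromosomes, where 14 of 15 protein-coding genes were listed at 0, so its level was not measured.

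Of 23 other cytokines and chemokines, 12 were tested, 7 rose, 3 fell and 2 did not pass, with a median log2 change of 0.60. The share called over all tested genes was 47.6%. KITLG, the ligand of KIT, had 27.4 ± 1.55 CPM in the knockout group and 15.7 ± 1.22 CPM in wild-type (SD, n = 4 each, log2 change 0.81, edgeR adjusted p = 1.98e-09). IL1A, an inducer of several of the members, had 1.87 ± 0.0554 CPM in the knockout group and 0.759 ± 0.0867 CPM in wild-type (log2 change 1.30, adjusted p = 1.41e-06). IL1B, named after its values were seen, had 4.47, 4.61, 4.01 and 11.1 CPM in knockout replicates 1, 2, 3 and 5 and 0.920, 1.35, 1.44 and 2.16 CPM in wild-type replicates 1, 2, 3 and 5 (log2 change 2.03, adjusted p = 0.0098). Like CXCL8 and CSF3 it was highest in replicate 5 of both groups. CLCF1, another gp130 ligand, fell by 0.36 (adjusted p = 0.000122), with 17 of its 20 nearest tested protein-coding genes below 0 (median -0.47). FLT3LG, with 25 counts over the knockout group and 60 over wild-type, fell by 1.39 (adjusted p = 0.014), a call lost without wild-type replicate 5 (0.0745). TNF had 4 counts over the knockout group and 3 over wild-type and was not tested.

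The list of transcription factors and inhibitors that act on such genes held 21 tested members. Of these 6 rose, 7 fell and 8 did not pass (median log2 change -0.06), against 47.6% called over all tested genes. NFKB1, which encodes the p50 subunit of NF-kB, had 32.8 ± 2.62 CPM in the knockout group and 72.0 ± 5.57 CPM in wild-type (SD, n = 4 each, log2 change -1.14, edgeR adjusted p = 1.15e-11). RELA, the p65 subunit, had 71.9 ± 2.01 CPM in the knockout group and 103.9 ± 3.85 CPM in wild-type (log2 change -0.53, adjusted p = 3.39e-09). TNFAIP3 (A20), an NF-kB target that restrains the pathway, had 56.6 ± 6.23 CPM in the knockout group and 21.6 ± 2.56 CPM in wild-type (log2 change 1.39, adjusted p = 1.03e-08). NFKB1 lies on chromosome 4, like the CXCL genes, and 18 of its 20 nearest tested protein-coding genes had a log2 change below 0 (median -0.77). Around RELA 19 of 20 did (median -0.49), while around TNFAIP3 2 of 20 did (median 0.23). The AP-1 subunit FOS had 10.2 ± 0.836 CPM in the knockout group and 5.69 ± 0.725 CPM in wild-type (log2 change 0.84, adjusted p = 3.62e-07).

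Of 17 tested genes of signalling upstream of NF-kB, which include the brake IRAK3, 4 rose, 7 fell and 6 did not pass (median log2 change 0.00). Calls over all tested genes made up 47.6%. But 7 genes of this list rose when scaled by library totals or upper quartiles. Without knockout replicate 2 or 3 or wild-type replicate 1, 2 of them rose. IRAK3, a brake on Toll-like and IL-1 receptor signalling, had 4 counts over the knockout group and 1464 over wild-type (edgeR adjusted p = 1.06e-15). TLR3, a sensor of double-stranded RNA, fell by 1.67 in log2 (edgeR adjusted p = 7.03e-09). It lies on chromosome 4, like the CXCL genes, and 14 of its 16 nearest tested protein-coding genes were below 0 (median -0.88). The TNF receptor gene TNFRSF1A rose by 0.32 (adjusted p = 3.17e-05) and the adaptor gene TAB2 by 0.17 (adjusted p = 0.00197), and around each of them 1 of 20 neighbours was below 0 (medians 0.45 and 0.13).

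Of 12 tested genes of mRNA decay and stability, 3 rose, 4 fell and 5 did not pass (median log2 change 0.02). Among all tested genes the share called was 47.6%. HNRNPD (AUF1) had 155.6 ± 6.52 CPM in the knockout group and 305 ± 21.0 CPM in wild-type (SD, n = 4 each, log2 change -0.97, edgeR adjusted p = 2.94e-12). ZFP36 (tristetraprolin), which binds ATTTA runs and speeds decay, had 2.78 ± 0.286 CPM in the knockout group and 5.22 ± 0.717 CPM in wild-type (log2 change -0.91, adjusted p = 2.84e-06). HNRNPD lies on chromosome 4, like the CXCL genes. Of the 20 nearest tested protein-coding genes, 19 were below 0 around HNRNPD (median log2 change -0.81) and 18 around ZFP36 (median -0.75). The ZFP36 relative ZFP36L1 was far more abundant, at 393 ± 23.9 CPM in the knockout group and 310.0 ± 20.5 CPM in wild-type (log2 change 0.34, adjusted p = 2.21e-05). ZFP36L2 rose by 0.15 (adjusted p = 0.0119), a call lost without wild-type replicate 2 (0.0609).

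Of 12 tested genes of JAK-STAT signalling, 3 rose, 3 fell and 6 did not pass (median log2 change -0.01). That stands beside 47.6% called over all tested genes. Without knockout replicate 3 only 1 of the JAK-STAT genes rose. STAT5A, which acts downstream of the GM-CSF receptor, had 0.655 ± 0.165 CPM in the knockout group and 10.7 ± 0.927 CPM in wild-type (SD, n = 4 each, log2 change -4.02, edgeR adjusted p = 3.82e-15). STAT5B fell by 0.56 (adjusted p = 1.76e-09). CISH, a feedback inhibitor known as a STAT5 target, rose by 0.89 (adjusted p = 0.000531), while 17 of its 20 neighbours were below 0 (median -0.45). The kinase gene TYK2 rose by 0.14 (adjusted p = 0.015), a call lost without knockout replicate 3 (0.0564), without wild-type replicate 1 (0.0535) and without the low-count filter (0.0545). STAT3, the main effector of gp130, named after its values were seen, stood at 224 CPM in both groups (log2 change 0.00, adjusted p = 0.995).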

How the data were processed

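The authors deposited whole-number counts per Ensembl gene for 8 samples of rRNA-depleted, stranded total RNA. Build hg38 and, among tools, DESeq2 1.23.10, FastQC 0.11.7, Subread 1.6.2, featureCounts and STAR 2.6.0c are listed, without roles, per the submitters' processing notes. The annotation release, strand setting and treatment of multi-mapping reads are not given in the sources used here. The authors' variance-stabilized table was not used here.

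Of 60646 genes, 60333 matched a symbol and 58459 matched GENCODE 29 on GRCh38. Knockout was compared with wild-type in R 4.3.3 with edgeR 4.0.16: filterByExpr (minimum count 10), trimmed-mean (TMM) scaling, a robust quasi-likelihood fit with group as the single term and Benjamini-Hochberg adjustment over all tested genes. CPM used TMM factors, log2 CPM a prior count of 2, and SE is the absolute log2 change over the square root of F. The procedure was tested on simulated data in which few genes changed and samples were independent. That does not test the scaling or the pairing in these data. DESeq2 1.42.0 and other settings served as alternatives.

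The members and the lists of related genes were chosen with earlier results of these data known. Named genes are the members, tested receptors and, per list, the 2 with the smallest adjusted p in each direction; others are marked. The labels do not say that samples came from separate cultures, so p-values measure only the spread between these samples, possibly technical. No replicates agreed within counting noise (chi-square per degree of freedom 3.41 to 18.4). Same-numbered samples deviated together over 13344 genes (correlations 0.369, 0.148, 0.146 and 0.373, against -0.302 to 0.0587 for other pairs), which meets the bar for pairing. The values reported come from the unpaired fit. The fit with the replicate number as a block is given beside it for CXCL8, CSF3, CXCL3, IL6, CSF2 and IL11. The values of 1 blood cell marker are not reported here.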

Additional observations from a re-analysis of the deposited data

Results flagged for a closer look

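Among the 20 groups of 4 values that the 10 members give, 2 held a sample far from the other 3 by Dixon's ratio of gap to range, which chance passes in about 1 group in 20. For CXCL8, knockout replicate 5 stood at 33.1 CPM with the nearest knockout sample at 13.5 CPM, a ratio of 0.959 against a critical value of 0.829. For CSF1, wild-type replicate 3 stood at 62.0 CPM with the nearest wild-type sample at 78.1 CPM, a ratio of 0.967.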

How the results depend on the processing

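Over the alternatives, 2 members passed as lower in each setting except without both samples numbered 5, where 3 did. The number that passed as higher, 6 in the comparison reported, was 6 with library totals, upper-quartile scaling and DESeq2, 5 without a filter and with the replicate number as a block, and 4 of 8 members left under the strict filter (mean log2 CPM of at least 1). Leaving out each replicate in turn, in the unpaired fit, gave 2 to 5 higher. Without both samples numbered 1 or 5, chosen after seeing the data, 1 and 3 passed as higher. IL11 passed in no setting; leaving out single replicates gave log2 changes from -0.31 to 0.13, above 0 without knockout replicate 3 (0.03) and without wild-type replicate 5 (0.13). CXCL8 passed in 7 of 18 alternatives, CSF2 in 8 of 17, CXCL3 in 12 of 18, IL6 in 12 of 17 and CSF3 in 13 of 18. Without a filter CXCL8 had an adjusted p of 0.0772. All genes called numbered 9458, and 7509 to 10472 over the settings other than those leaving out both samples of a number. With the replicate block, CXCL8 and CD68 lost their calls and IL18, BCL3, IL1RAP, IKBKB, SOCS3 and CD14 gained one; no other call of a listed gene changed. Of 373 values for 27 named related genes, 368 kept direction and call and 5 lost the call. Apart from the receptors, these genes were named for their small adjusted p in the same data, which favours stable calls. The settings without both samples of a number were not counted for them, so they cannot be set against the members. The strict filter left 2 receptors and 4 other cytokines higher and 1 lower. Where a call was lost, the cause was not tested. IL6 and CSF2 had 38 to 84 counts per sample.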
